A study of Mus musculus with 6 samples.

Results

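The semaphorin, plexin and neuropilin genes were 31 of the 36291 gene rows, chosen by symbol alone: 20 semaphorins of classes 3 to 7, which are the ligands, and 11 receptors, namely 9 plexins and the neuropilins Nrp1 and Nrp2. Their messenger RNA was counted in 3 knockout (KO) and 3 wild-type (WT) libraries of cells sorted out of the telencephalon of E14.5 embryos (Swiss strain mice). In the KO group the gene Sip1, now called Zeb2, was deleted through an Nkx2-1 iCre driver, and cells carrying eGFP after that Cre had acted were collected from KO and WT embryos alike by fluorescence. Each KO library shares a number (K77, K79 or K80) with a WT library. The labels do not give the meaning of the number, the deleted part of Zeb2, the alleles behind WT, or whether a library came from a single embryo, and any p-value therefore reflects library-to-library spread, which may be technical.

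Semaphorins are secreted or membrane-bound guidance proteins that mostly repel growing axons and migrating neurons. Plexins are their signalling receptors. Neuropilins bind the secreted class 3 semaphorins and form the holoreceptor with A-type plexins. In the mouse forebrain, interneurons born in the medial ganglionic eminence (MGE) carry Nrp1 and Nrp2, and class 3 semaphorins made in the striatum steer them around it on their way to the cortex.

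Libraries held 8323531 to 11069437 counts in genes. Zeb2 checked the labels, with 2856, 2759 and 3391 counts in KO K77, K79 and K80, against 6468, 5350 and 8094 in WT K77, K79 and K80 (edgeR log2 fold change -1.11, SE 0.138, adjusted p = 0.00116). All 12 listed markers of the MGE lineage passed the filter on low counts, and Lhx6, which specifies interneurons born in the MGE, averaged 1096 ± 147 CPM in KO and 1057 ± 117 CPM in WT (SD, n = 3 each). WT K79 stood apart from the other libraries in sex-linked genes: it held 26109 counts of Xist and 0 to 3 of each of the Y-linked genes Ddx3y, Eif2s3y, Kdm5d and Uty. The other libraries held 13 to 28 counts of Xist and 310 to 1276 of each of those Y-linked genes. Levels below are CPM, read counts of a gene relative to the library total after scaling for composition. Fold changes are KO over WT on the log2 scale with their standard error (SE), and a gene is called at an adjusted p under 0.05.

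Of the 31 genes, 29 passed the filter, and edgeR called 4 higher and 2 lower in KO, leaving 23 not called. The higher ones were Nrp2, Plxnc1, Sema4a and Sema6d. The lower ones were the secreted ligands Sema3a and Sema3f, which showed the largest changes of the family. Across all 13835 genes tested, 3.64% were called higher and 2.62% lower, 6.27% in all, against 20.7% of these 29. The median log2 fold change was 0.07 over the 29 genes and -0.01 over all tested genes. Libraries of the genotypes did not overlap for 8 of the 29 (27.6%), against 23.2% of all tested genes. With the K number as a block, 7 were called higher and 3 lower, where 6.13% of all genes were called higher and 4.45% lower, 10.6% in all. The added genes were Nrp1, Sema3c and Sema4d, called higher, and Sema7a, called lower. When a library was left out, the number called higher was 0 without KO K79, WT K77 or WT K80, 1 without KO K80, 2 without KO K77 and 6 without WT K79, while 2 were lower in each of these fits. Over all genes 1.93 to 4.6% were called higher and 1.25 to 2.84% lower in those fits, so calls were fewer at large in most of them. The log2 fold changes stayed above 0, at 0.47 to 0.79 for Nrp2, 0.44 to 0.70 for Plxnc1, 0.25 to 0.29 for Sema4a and 0.26 to 0.36 for Sema6d. In these sorted bulk samples, fewer cells that make a transcript and less of it per cell cannot be told apart.

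**Figure D1:**
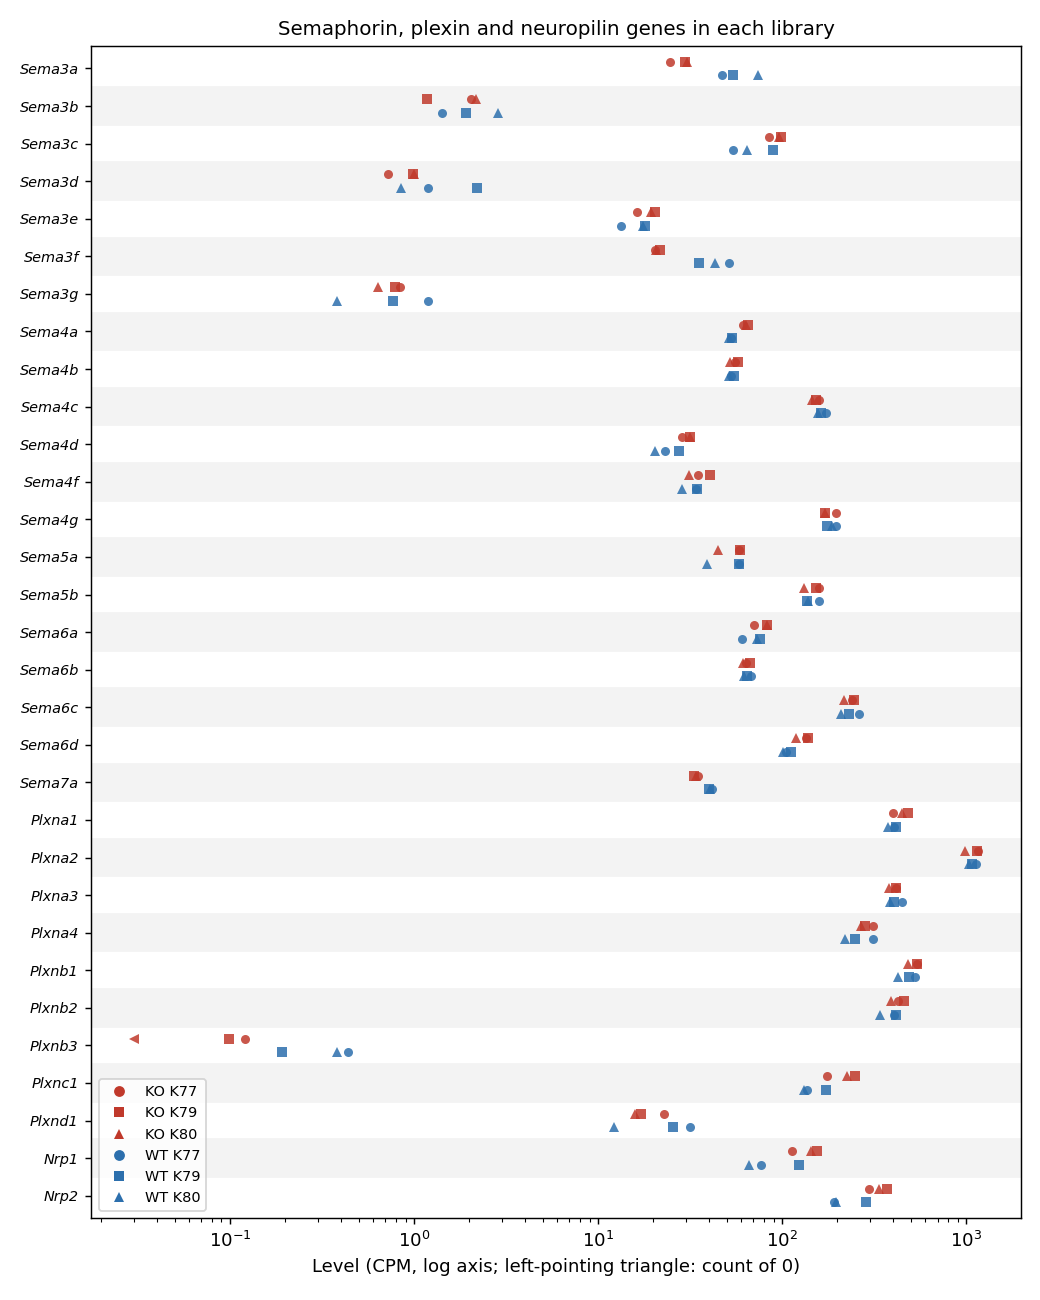
Level in CPM (log axis) of each of the 31 genes in every library, KO in red above WT in blue, with the marker shape giving the K number. A-type and B-type plexins lie near the right, at 200 CPM or more apart from Plxnb3, and for Sema3a and Sema3f each KO library lies left of each WT library.

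**Figure D2:**
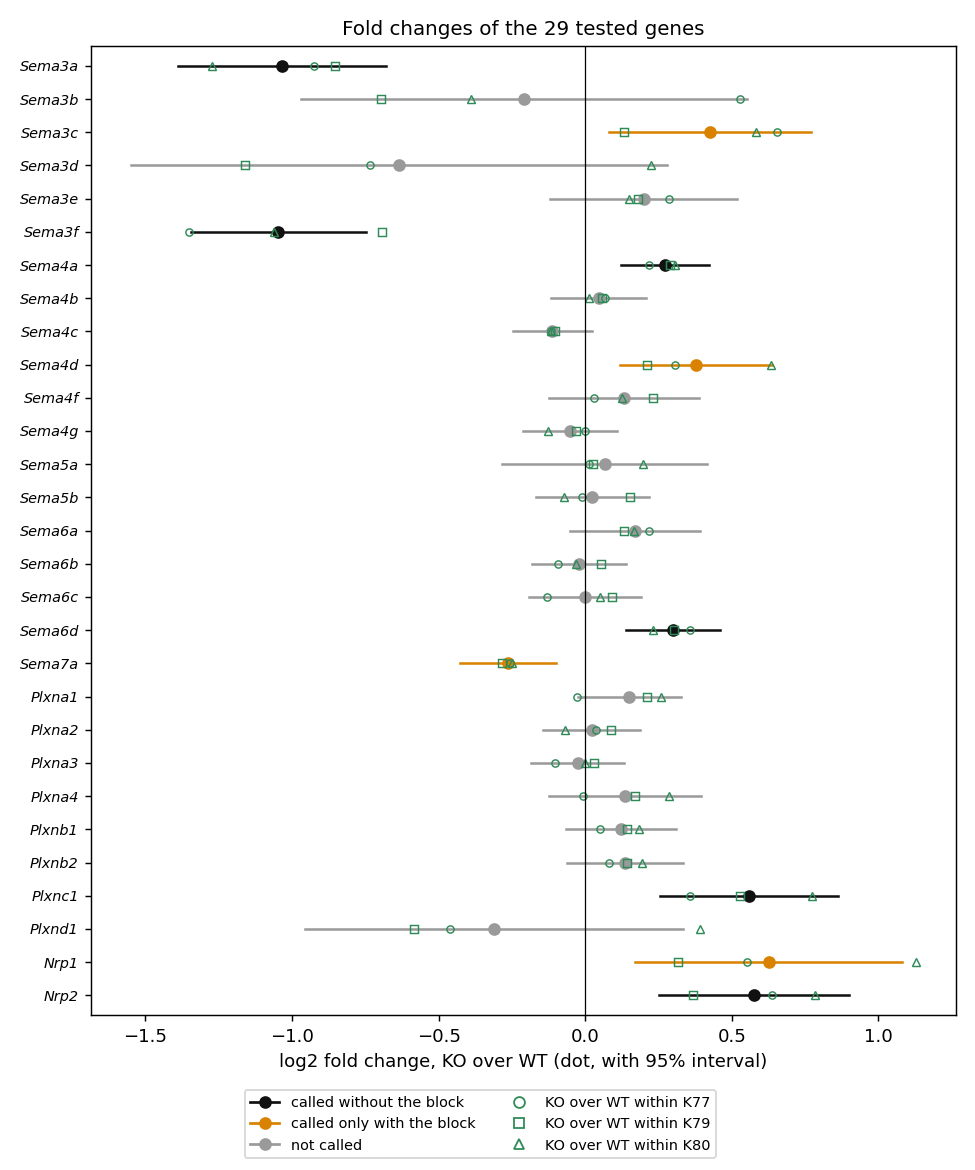
The log2 fold change of KO over WT (dots) with its 95% interval for the 29 tested genes, and the change within each K number (open symbols). Sema3a and Sema3f lie near -1, and Nrp1, Nrp2 and Plxnc1 lie between 0.5 and 0.7.

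Sema3a, the founding secreted repellent that acts through Nrp1, was lower in KO cells. It stood at 24.8, 29.8 and 30.6 CPM in KO K77, K79 and K80, against 47.0, 53.8 and 73.9 CPM in WT K77, K79 and K80. Each KO library lay below each WT library, and WT K80 was the highest. The log2 fold change was -1.03 (SE 0.159, edgeR adjusted p = 0.00383), a level 2.05-fold lower in KO. The call held without any 1 library, with adjusted p 0.00306 to 0.0219.

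Sema3f, the secreted repellent that acts through Nrp2 and Plxna3, fell by a similar amount. Its levels were 20.3, 21.8 and 20.7 CPM in KO K77, K79 and K80, against 51.8, 35.2 and 43.1 CPM in WT K77, K79 and K80. The KO libraries lay close together, below all WT libraries, and among WT libraries K79 was the nearest to KO. The log2 fold change was -1.05 (SE 0.134, edgeR adjusted p = 0.00128), 2.07-fold lower in KO, and it kept its call without any 1 library (adjusted p 0.000214 to 0.0111).

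None of the other class 3 ligands was called without the block. Sema3c, which signals through either neuropilin and through Plxnd1, stood at 85.1, 98.3 and 96.1 CPM in KO K77, K79 and K80, against 54.1, 89.7 and 64.2 CPM in WT K77, K79 and K80. WT K79 overlapped with KO, the log2 fold change was 0.43 (SE 0.154, edgeR adjusted p = 0.16), and Sema3c was called higher with the block (adjusted p = 0.0175), with DESeq2 (0.0443), with no filter on low counts (0.0247) or without WT K79 (0.00369). Sema3e, a ligand of Plxnd1 that needs no neuropilin, averaged 18.8 ± 2.13 CPM in KO and 16.3 ± 2.55 CPM in WT (log2 fold change 0.20, edgeR adjusted p = 0.531). Sema3b and Sema3d held only 6 to 30 counts a library, and their 95% intervals of -0.97 to 0.55 and -1.55 to 0.28 leave the size of any change loosely bounded at this depth. Sema3g did not pass the filter, with 7, 8 and 7 counts in KO K77, K79 and K80, against 11, 8 and 4 in WT K77, K79 and K80.

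Among the transmembrane ligands of classes 4 to 6, 2 of 12 were called, both higher in KO, beside 3.64% of all genes called higher. Sema4a, a class 4 member also known for costimulating T cells, was at 61.6, 65.3 and 63.8 CPM in KO K77, K79 and K80, against 52.9, 53.5 and 51.6 CPM in WT K77, K79 and K80. The replicates were tight and did not overlap. It rose by 0.27 (SE 0.067, edgeR adjusted p = 0.0406), and its log2 fold change was 0.25 to 0.29 without any 1 library and 0.27 with DESeq2 or no filter on low counts. The adjusted p was then over the threshold, at 0.0601 to 0.171 without any 1 library, 0.0907 with DESeq2 and 0.06 with no filter. Sema4a was also not called in the authors' deposited table.

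Sema6d, a class 6 ligand of Plxna1, was at 135, 138 and 119 CPM in KO K77, K79 and K80, against 106, 112 and 102 CPM in WT K77, K79 and K80. KO and WT libraries did not overlap, with KO K80 the nearest to WT. It rose by 0.30 (SE 0.0718, edgeR adjusted p = 0.0371), and the call was lost without KO K77, KO K79, WT K77 or WT K80 (adjusted p 0.104 to 0.172). Like Sema4a, Sema6d was not called in the authors' deposited table. Its sisters Sema6a, a ligand of Plxna2 and Plxna4, Sema6b and Sema6c were not called. Sema6c stood at 234 ± 15.4 CPM in KO and 234 ± 26.7 CPM in WT (SD, n = 3 each), and the 95% interval of its log2 fold change ran from -0.19 to 0.19.

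Sema4d, the classical ligand of Plxnb1, was at 28.6, 31.8 and 31.8 CPM in KO K77, K79 and K80, against 23.1, 27.4 and 20.5 CPM in WT K77, K79 and K80. The groups did not overlap, the log2 fold change was 0.38 (SE 0.116, edgeR adjusted p = 0.0978). Blocking by K number (adjusted p = 0.0438) or leaving out WT K79 (0.025) brought it past the threshold. Sema7a, which is held in the membrane by a lipid anchor and binds Plxnc1 and beta-1 integrin, was the steadiest of the group between replicates. Its levels were 34.8, 33.1 and 34.2 CPM in KO K77, K79 and K80, against 41.5, 40.2 and 40.6 CPM in WT K77, K79 and K80. The log2 fold change of -0.26 (SE 0.0735) missed the threshold in edgeR (adjusted p = 0.0674), reached it with the block (adjusted p = 0.0497), and lay between -0.28 and -0.25 without any 1 library.

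The rest of classes 4 to 6 was not called. Sema4c, a ligand of Plxnb2, averaged 152 ± 7.08 CPM in KO and 165 ± 7.82 CPM in WT, with exons that overlap a counted gene on the other strand. Sema4g averaged 180 ± 14.48 CPM in KO and 186 ± 11 CPM in WT, and Sema4b averaged 55.0 ± 2.58 CPM in KO and 53.2 ± 1.72 CPM in WT. Sema5b averaged 147 ± 14.3 CPM in KO and 145 ± 12.9 CPM in WT, and Sema5a averaged 54.3 ± 8.02 CPM in KO and 51.8 ± 10.8 CPM in WT. Sema6a averaged 78.9 ± 7.1 CPM in KO and 70.2 ± 8.18 CPM in WT, and Sema6b averaged 64.1 ± 3.05 CPM in KO and 65.0 ± 3.02 CPM in WT. For Sema4f the values were 35.6 ± 4.65 CPM in KO and 32.4 ± 3.2 CPM in WT (SD, n = 3 each throughout). Counted with Plxna1 to Plxna4, Plxnb1 and Plxnb2, 14 genes of at least 50 CPM were called in neither fit, with log2 fold changes from -0.11 to 0.17 and 95% intervals that lay within -0.28 to 0.42.

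**Figure D3:**
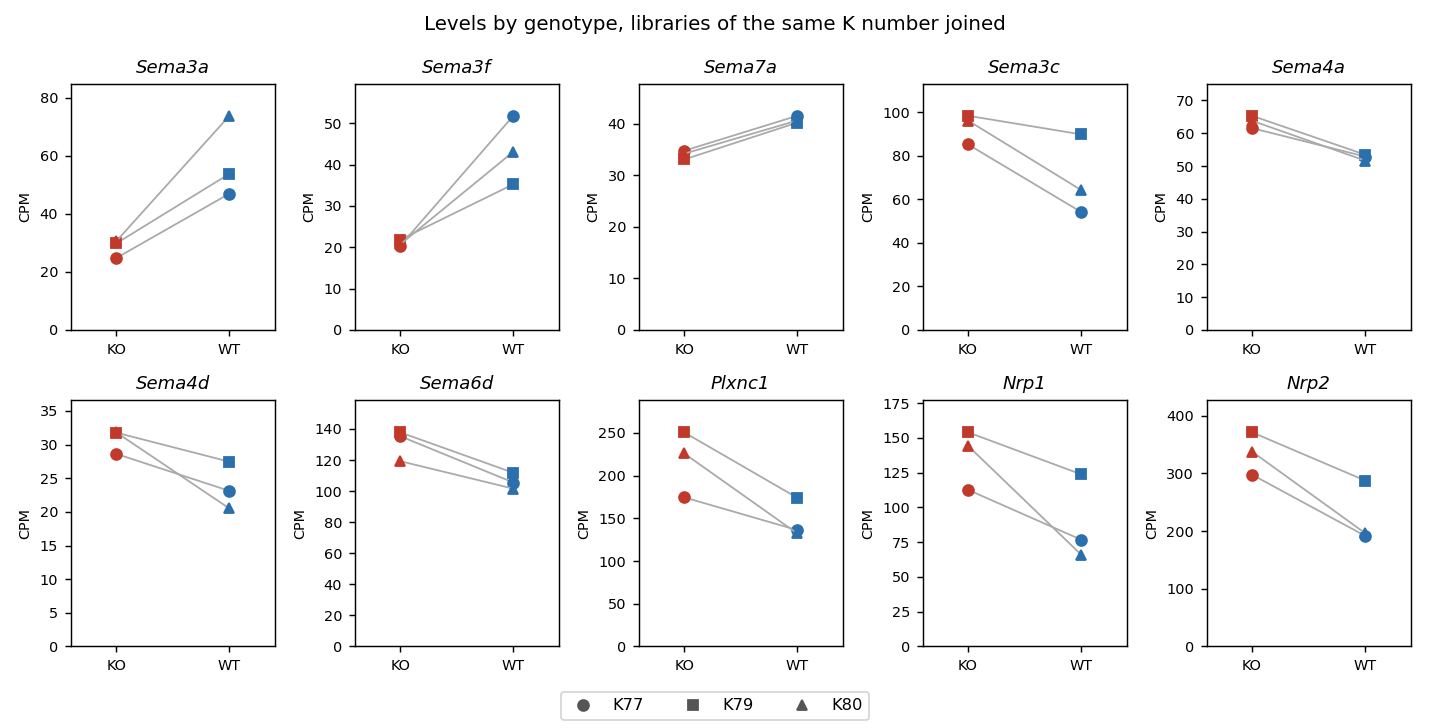
CPM of the 10 genes called with or without the block, in KO (left, red) and WT (right, blue), lines joining libraries of the same K number. Within every K number Sema3a, Sema3f and Sema7a are lower in KO, and the other 7 genes are higher in KO.

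Among receptors, Nrp2 rose in KO, and Nrp1 was called higher with the block. Nrp2, the receptor for Sema3f, stood at 298, 371 and 338 CPM in KO K77, K79 and K80, against 192, 288 and 196 CPM in WT K77, K79 and K80. KO and WT did not overlap, but WT K79 nearly reached KO K77. Nrp2 rose by 0.58 (SE 0.146, edgeR adjusted p = 0.0461, and 0.000961 with the block). The call was lost with DESeq2 (adjusted p = 0.106) and without KO K79, KO K80, WT K77 or WT K80 (adjusted p 0.128 to 0.192), while without WT K79 the log2 fold change was 0.79 (adjusted p = 0.000746).

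Nrp1, the receptor for Sema3a and also a co-receptor for vascular endothelial growth factor, was at 113, 154 and 144 CPM in KO K77, K79 and K80, against 76.8, 124 and 66.0 CPM in WT K77, K79 and K80. WT K79 lay above KO K77, so the groups overlapped. The log2 fold change was 0.63 (SE 0.204, edgeR adjusted p = 0.117). Nrp1 was called with the block (0.66, adjusted p = 0.00944), with no filter on low counts (adjusted p = 0.00387) and without WT K79 (0.95, adjusted p = 0.00238). It was not called with DESeq2 (adjusted p = 0.345), with limma voom (adjusted p = 0.089) or without any other library (edgeR adjusted p 0.0851 to 0.35). In the authors' deposited table Nrp1, Nrp2, Plxnc1 and Sema3c were higher and Sema3a and Sema3f lower, 6 calls in all, where 3.37% of the rows with a p-value were called higher and 2.17% lower. The ratio of Nrp2 to Nrp1 counts within a library was 2.46 ± 0.159 in KO and 2.6 ± 0.338 in WT (SD, n = 3 each). The genotypes overlapped in that ratio, whose direction changed without WT K80. A two-sided exact permutation test over 3 against 3 libraries, which takes no account of the K number, gave p = 0.7 and cannot go below 0.1, so it could not have passed 0.05. This ratio was chosen with earlier results of these data known.

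The DNA upstream of the neuropilin genes and of Sema3a is shown because, with the block, the neuropilins were called higher and Sema3a lower. Zeb2 binds DNA through zinc finger clusters that read CACCT, often as the E-box CACCTG. Each window is the 250 bases before a RefSeq transcript start in GRCm38.p6, on the plus strand: Nrp2 at chr1:62703067-62703316, Nrp1 at chr8:128358823-128359072 and Sema3a at chr5:13396534-13396783. Capitals mark CACCT or its reverse complement AGGTG.
Nrp2: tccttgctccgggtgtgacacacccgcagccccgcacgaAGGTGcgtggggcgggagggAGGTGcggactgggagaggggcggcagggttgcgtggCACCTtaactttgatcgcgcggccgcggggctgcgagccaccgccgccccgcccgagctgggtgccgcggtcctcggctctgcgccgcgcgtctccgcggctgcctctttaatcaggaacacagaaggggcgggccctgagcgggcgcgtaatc
Nrp1: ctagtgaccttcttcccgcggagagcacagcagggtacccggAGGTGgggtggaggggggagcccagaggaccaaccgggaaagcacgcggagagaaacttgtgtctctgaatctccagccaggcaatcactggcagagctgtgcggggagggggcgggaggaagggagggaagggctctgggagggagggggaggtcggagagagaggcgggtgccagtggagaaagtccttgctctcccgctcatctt
Sema3a: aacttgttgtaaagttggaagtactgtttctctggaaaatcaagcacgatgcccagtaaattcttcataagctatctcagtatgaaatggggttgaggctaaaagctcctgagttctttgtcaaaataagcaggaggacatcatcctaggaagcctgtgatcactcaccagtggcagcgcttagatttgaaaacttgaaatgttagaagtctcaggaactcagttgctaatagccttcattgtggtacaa
The Nrp2 window holds 3 such matches, the Nrp1 window 1 and the Sema3a window 0. The E-box CACCTG, or its reverse complement CAGGTG, has 0 matches in each of these windows, so in that motif they do not differ. Of the other genes called higher with the block, the windows of Plxnc1, Sema3c and Sema4d hold 0 matches to CACCT or AGGTG. Those of Sema4a hold 2, 1, 1 and 1 matches, and those of Sema6d hold 3 and 2. The window of Sema7a, called lower, holds 0, and no window was found for Sema3f, also called lower. Upstream windows were found for 26 of the 31 genes, 37 windows in all, of which 51.4% hold CACCT or AGGTG, against 46% of all 32851 windows. The longer CACCTG or CAGGTG, which contains the shorter motif, was in 13.5% of the members' windows and 17.2% of all. The shorter motif was added after values had been seen, and a match is only a description of these letters.

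Plxnc1, the plexin that binds Sema7a, was the plexin gene that was called. It stood at 175, 251 and 226 CPM in KO K77, K79 and K80, against 136, 174 and 132 CPM in WT K77, K79 and K80. KO K77 and WT K79 were nearly level, and the other KO libraries lay well above WT. Plxnc1 rose by 0.56 (SE 0.136, edgeR adjusted p = 0.0388, and 0.00135 with the block). The call was lost without KO K79, KO K80, WT K77 or WT K80 (adjusted p 0.113 to 0.167).

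The A-type and B-type plexins, the main signal-transducing receptors of the family, were measured at high counts and none was called. Of the 4 A-type genes, Plxna1 averaged 444 ± 43.1 CPM in KO and 400 ± 22.6 CPM in WT, and Plxna2 averaged 1099 ± 100 CPM in KO and 1083 ± 51.2 CPM in WT. Plxna3 averaged 406 ± 19.6 CPM in KO and 414 ± 32.9 CPM in WT, and Plxna4 averaged 287 ± 22.3 CPM in KO and 261 ± 47.6 CPM in WT. Plxnb1, the Sema4d receptor, whose exons also overlap a counted gene on the other strand, averaged 522 ± 34.5 CPM in KO and 480 ± 51.3 CPM in WT, and Plxnb2 averaged 425 ± 34.9 CPM in KO and 387 ± 40.8 CPM in WT (SD, n = 3 each). Their log2 fold changes ran from -0.03 for Plxna3 to 0.15 for Plxna1, and the 95% interval for Plxna2 was -0.14 to 0.19. Plxnd1, known best as an endothelial receptor for Sema3e, was at 23.0, 17.2 and 16.0 CPM in KO K77, K79 and K80, against 31.6, 25.7 and 12.2 CPM in WT K77, K79 and K80 (edgeR adjusted p = 0.645). Plxnb3 held 1, 1 and 0 counts in KO K77, K79 and K80, against 4, 2 and 4 in WT K77, K79 and K80, and was not tested.

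Levels were set against each other per kb of exon length (CPM per kb). Among receptors Plxna2 was the highest in either genotype, at 64.0 ± 5.83 CPM per kb in KO and 63.0 ± 2.98 in WT. Plxnb2 (55.1 ± 4.52 in KO, 50.1 ± 5.29 in WT), Plxnb1 (54.4 ± 3.59 in KO, 50.01 ± 5.34 in WT) and Plxna3 (51.6 ± 2.49 in KO, 52.5 ± 4.18 in WT) did not differ beyond their spread. Plxna1 had a lower mean (49.0 ± 4.76 in KO, 44.2 ± 2.5 in WT). Its spread overlapped that of all 3 in KO, and that of Plxnb1 and Plxnb2 in WT. Nrp2 (28.3 ± 3.1 in KO, 19.0 ± 4.57 in WT), Plxnc1 (26.0 ± 4.65 in KO, 17.7 ± 2.76 in WT) and Plxna4 (20.4 ± 1.58 in KO, 18.5 ± 3.38 in WT) followed. Within WT those 3 lay within each other's spread. Nrp1 came lower, at 14.0 ± 2.21 CPM per kb in KO and 9.08 ± 3.14 in WT. Among ligands the highest were Sema6c (39.4 ± 2.6 in KO, 39.4 ± 4.49 in WT) and Sema4c (33.2 ± 1.54 in KO, 35.9 ± 1.7 in WT), whereas Sema3a reached 2.05 ± 0.227 CPM per kb in KO and 4.2 ± 1.01 in WT.

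Ligand and receptor genes were then counted apart. Ligand genes with a test numbered 19: 2 rose, 2 fell, and the other 15 stayed short of the threshold, at a median log2 fold change of 0.02. Receptor genes with a test numbered 10: 2 rose, 0 fell, and the other 8 stayed short of it, at a median of 0.14. In either direction, 21.1% of these ligand genes and 20% of these receptor genes were called, beside 6.27% of all genes (3.64% higher, 2.62% lower). For receptors edgeR gave 0 lower, as did DESeq2 (4.03% of all genes higher, 2.81% lower, 6.84% in all) and limma voom (3.68% higher, 2.62% lower, 6.3% in all). With so few of all genes called lower, 0 of 10 does not set receptors apart. Of the 10 receptor genes, 3 had an unadjusted p under 0.05, all of them higher. An unadjusted p under 0.05 was also found for 7 of the 19 ligand genes and for 2539 of the 13835 genes tested. Summed per kb, receptor levels were 360, 388 and 348 in KO K77, K79 and K80, against 342, 345 and 295 in WT K77, K79 and K80. Ligand levels were 222, 225 and 209 in KO K77, K79 and K80, against 229, 220 and 211 in WT K77, K79 and K80. The receptor to ligand ratio was thus 1.62, 1.72 and 1.66 in KO K77, K79 and K80, against 1.5, 1.56 and 1.4 in WT K77, K79 and K80. The groups did not overlap in that ratio, which was not tested, and the gene family was taken up with earlier results of these data known.

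Count ratios of ligands to their receptors within a library, which need no scaling between libraries, were taken for pairs picked after the values had been seen and are descriptions. Sema3f to Nrp2 was 0.0682, 0.0587 and 0.0612 in KO K77, K79 and K80, against 0.27, 0.122 and 0.22 in WT K77, K79 and K80. Sema3a to Nrp1 was 0.22, 0.193 and 0.212 in KO K77, K79 and K80, against 0.612, 0.435 and 1.12 in WT K77, K79 and K80. In those pairs the KO libraries lay close together, and WT K79 was the nearest WT library to KO. Sema7a to Plxnc1 was 0.199, 0.132 and 0.151 in KO K77, K79 and K80, against 0.305, 0.231 and 0.307 in WT K77, K79 and K80, again with no overlap. Sema4d to Plxnb1 went the other way, at 0.0526, 0.0589 and 0.0659 in KO K77, K79 and K80, against 0.0439, 0.0562 and 0.0483 in WT K77, K79 and K80, and there WT K79 lay above KO K77, so the groups overlapped.

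**Figure D4:**
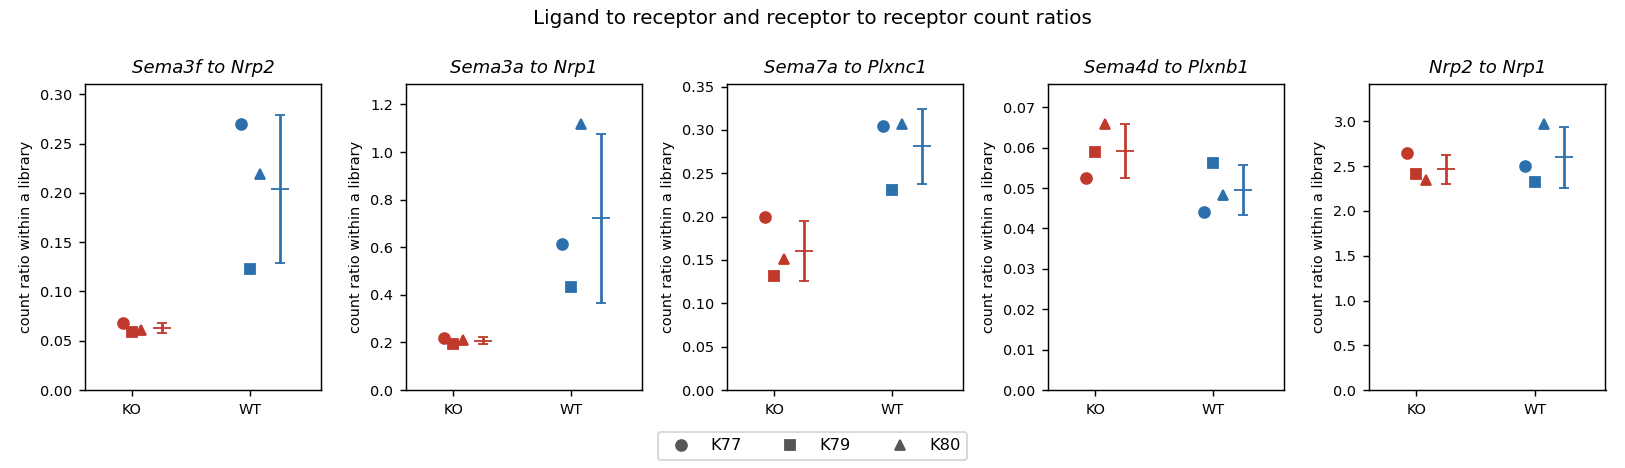
Ratios of raw counts within each library for 4 ligand to receptor pairs and for Nrp2 to Nrp1, KO left and WT right, with the mean and SD (n = 3) beside the points. The ratios of Sema3f to Nrp2, Sema3a to Nrp1 and Sema7a to Plxnc1 are lower in KO with no overlap between genotypes, whereas those of Sema4d to Plxnb1 (0.0591 in KO and 0.0495 in WT on average) and Nrp2 to Nrp1 (2.46 in KO and 2.6 in WT on average) overlap.

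A list of further genes of the pathway held co-receptors, adhesion molecules that pair with the receptors, and effectors inside the cell. Of 58 symbols listed, 55 passed the filter, and 2 rose, 2 fell and 51 were not called, or 7.27% called beside 6.27% of all genes. The median log2 fold change of the list was -0.02. Mical2, of the family of actin-oxidising monooxygenases that act downstream of plexins, rose to 41.1 ± 9.24 CPM in KO, against 11.97 ± 0.744 CPM in WT (SD, n = 3 each; log2 fold change 1.77, edgeR adjusted p = 0.000186). Its call held without any 1 library (adjusted p up to 0.0019). Chl1, an L1-family adhesion molecule that can pair with Nrp1, fell to 322 ± 35.1 CPM in KO, against 499 ± 85.9 CPM in WT (log2 fold change -0.63, adjusted p = 0.0127), and was not called without KO K80 (0.0742). Limk1, the kinase of the actin-severing protein cofilin, rose by 0.22 (adjusted p = 0.0472), and this call was lost without any 1 library (adjusted p up to 0.184). Sh3bp1, a Rac GTPase-activating protein, fell by 1.28 (adjusted p = 0.0259) at 2.3 ± 0.759 CPM in KO and 5.56 ± 1.2 CPM in WT, and was called in 2 of the 6 fits that left out a library. With the block 5 rose and 3 fell, 8 of 55 beside 10.6% of all genes, adding Rap1b, Mical3 and Rras2 as higher and Tiam1 as lower.

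Markers of other cells were compared because some of them carry these receptors. Summed levels of 17 endothelial, pericyte and meningeal genes were 36.3 to 63.1 CPM in KO and 39.4 to 68.0 CPM in WT, and 1 of the 15 tested was called, Cspg4, lower in KO, which is also an oligodendrocyte precursor gene. The 8 microglial genes summed to 3.26 to 4.09 CPM in KO and 3.46 to 4.18 CPM in WT. The 8 erythroid genes summed to 7.8 to 18.3 CPM in KO and 14.1 to 24.4 CPM in WT, with 2 of them (Hba-a1 and Hba-a2) at 0 in all libraries. The 6 oligodendrocyte precursor genes summed to 50.9 to 59.3 CPM in KO and 126 to 148 CPM in WT, and 5 of them were called lower, so these markers moved with genotype. Their part in the changes of semaphorin and receptor genes was not tested. The 10 cortical glutamatergic genes (704 to 890 CPM in KO, 755 to 1021 CPM in WT) and 8 progenitor genes (1292 to 1543 CPM in KO, 1388 to 1784 CPM in WT) are given for the cells around the sorted lineage. Nkx2-1, known in mouse as a repressor of Nrp2 in MGE-derived interneurons, stood at 625 ± 34.8 CPM in KO and 384 ± 60.3 CPM in WT (SD, n = 3 each; log2 fold change 0.70, edgeR adjusted p = 0.00301), and its part in the level of Nrp2 was not tested.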

How the data were processed

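RNA was read from 6 libraries, and the deposited files hold raw counts of reads per gene, not normalized. The authors' count table matched the per-sample files in all 36291 rows. TopHat 1.2.0, HTSeq 0.5.3p3, DESeq 1.2.2 and mm9 are named in the submitters' processing notes with no role or order. Neither the notes nor the labels name an annotation or say whether strand was used. The authors' deposited table holds p-values and the fold change, both as a ratio and as log2. It names its groups only as A and B, and was read as KO over WT because its log2 values match those computed here. Its variance score columns, deposited by the authors, were not used. Rows that name no gene were left out (no feature, 19.75 to 21.77% of counts, and ambiguous, 1.94 to 1.99%).

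Tests used R 4.3.3 and edgeR 4.0.16: TMM scaling, a filter (filterByExpr, minimum count 10), quasi-likelihood tests and p-values adjusted by Benjamini-Hochberg over 13835 genes. CPM use the TMM library sizes. The SE is the log2 fold change over the root of the F statistic. Exon lengths were taken from GENCODE vM21 (GRCm38), a later build than mm9, as the union of exons, and upstream sequences from RefSeq (GRCm38.p6). No replicate pair agreed within sampling noise (chi-square over its degrees of freedom, 3.61 to 10.0).

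The main fit and those with a library left out did not use the K number, as the labels do not give its meaning. A further fit took the K number as a block that pairs libraries. The reason was that same-numbered libraries shared deviations around the group means (correlations over genes of 0.256, 0.197 and 0.175, each over 0.1). Alternatives were RLE scaling, DESeq2 1.42.0, limma 3.58.1 voom, other filters, a threshold of 0.01, the block and each library left out. Named were every member, with full values for those called in either fit or of at least 50 CPM, and called genes of a signalling list. Members were picked by symbol, but the family and the lists were chosen with earlier results of these data known.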

Additional observations from a re-analysis of the deposited data

How the results depend on the processing

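Among the 29 tested genes, Sema3a and Sema3f were called lower in each alternative run, and the block added Sema7a. The number called higher moved, from 4 to 7 with the replicate block and to 0 at an adjusted p under 0.01, and it lay between 0 and 6 when a library was left out. Over all genes, 3.64% were called higher in the main fit, 6.13% with the block and 1.84% at the stricter threshold. The shares called lower were 2.62%, 4.45% and 1.25% in the same order. Without a library, 1.93 to 4.6% of all genes were called higher and 1.25 to 2.84% lower. With no filter on low counts, 21687 genes were tested, of which 3.42% were called higher and 2.52% lower. For ligand genes called higher the count moved from 2 to 4 with the block and to 0 at the stricter threshold, with 0 to 3 when a library was left out. For receptor genes called higher it moved from 2 to 1 with DESeq2 and to 0 at the stricter threshold, with 0 to 3 when a library was left out. For the signalling list, genes called higher moved from 2 to 1 with limma voom, to 4 with no filter, to 5 with the block and to 1 at the stricter threshold, with 1 to 4 when a library was left out. Genes of that list called lower moved from 2 to 0 at the stricter threshold, with 0 to 3 when a library was left out. The difference between genotypes in the log2 ratio of Nrp2 to Nrp1 was -0.07 and lay between -0.15 and 0.0313 when a library was left out. Genes that changed sign were never called. Sema6c turned to 0.0014 with RLE, 0.0014 with DESeq2, 0.0042 with voom, 3.5e-05 at 1 CPM and 0.0043 with the block. Leaving out a library gave -0.0217 to 0.0954 for Plxna2, -0.0794 to 0.036 for Plxna3, -0.41 to 0.10 for Sema3b, -0.10 to 0.19 for Sema5a, -0.0308 to 0.10 for Sema5b, -0.0592 to 0.0135 for Sema6b and -0.0768 to 0.0886 for Sema6c. The cause of these shifts was not tested. Exons of Plxnb1 and Sema4c overlap counted genes on the opposite strand, so their counts are uncertain. Summed over the 6 libraries, the gene opposite Plxnb1 held 192 counts and the gene opposite Sema4c held 14. Plxnb1 itself held 4473 to 5470 counts a library, and Sema4c held 1327 to 1702.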

Other observations

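Several class 3 semaphorin genes are neighbours in the genome, and their calls differed. On chromosome 5, in RefSeq gene order (GRCm38.p6), Sema3d and Sema3a follow each other with 0 protein-coding genes between them, 3 lie between Sema3a and Sema3e, and 15 between Sema3e and Sema3c. Of these, Sema3a fell (log2 fold change -1.03), whereas the log2 fold changes of Sema3d, Sema3e and Sema3c were -0.64, 0.20 and 0.43. Sema3d and Sema3e were not called, and Sema3c was called with the block, with DESeq2, with no filter and without WT K79. On chromosome 9, 3 protein-coding genes lie between Sema3b and Sema3f, of which Sema3f fell (-1.05) and Sema3b (-0.21) was not called.

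None of the A-type plexin genes was called, and their shares of the summed A-type level were as follows. Per kb of exon, Plxna2 took 34.6 ± 1.73% of the plexin A signal in KO and 35.4 ± 0.775% in WT, and Plxna3 took 27.9 ± 0.484% in KO and 29.4 ± 0.477% in WT. Plxna1 took 26.5 ± 2.62% in KO and 24.8 ± 1.13% in WT, and Plxna4 took 11.02 ± 0.762% in KO and 10.3 ± 1.19% in WT (SD, n = 3 each). These shares were not tested.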
